A study of Homo sapiens with 24 samples.

Results

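Described here are 8 genes of the regulatory network around the circular RNA ciRS-7 (also CDR1as), out of 60658 gene rows in the deposited tables. They were chosen by symbol, with earlier results of these data known. LINC00632, CDR1 and CDR1-AS are rows at the ciRS-7 locus. OIP5-AS1 is the long non-coding RNA Cyrano, HNRNPK and MIR7-3HG are host genes of miR-7 hairpins, CHPF2 is the host gene of miR-671, and ZSWIM8 acts in the decay of microRNAs.

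Polyadenylated RNA was sequenced from cells labelled SH-SY5Y, a human neuroblastoma line, harvested 48 h after transfection. Each of 4 knockdown setups against ciRS-7 (KD) had its own non-targeting control (NTC), with 3 libraries per group, 8 groups and 24 libraries in all. For agoshRNA, both arms received a vector for a short hairpin RNA. In the gRNA and pre-gRNA setups, both arms received a plasmid for CasRx fused to GFP together with a guide plasmid. For syn-gRNA the guide was synthesized chemically, and the labels do not describe how it was delivered. Off-target effects of the 4 approaches were the stated question of the series. Libraries are named below by setup, arm and the letter A, B or C of their column. No label says that libraries of a group came from separate cultures, so the p-values measure the spread between these libraries, which may be technical.

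Total counts per library ranged from 10994974 to 16233777, so that 3 counts corresponded to 0.185 to 0.273 CPM (counts per 1000000 counts of the library). Of 10 marker genes of noradrenergic neuroblastoma, 5 had a mean under 0.1 CPM, among them TH at 0.0, DBH at 0.02 and PHOX2A at 0.09 CPM, and 4 were above 10 CPM (GATA2, TBX2, HAND1 and CHRNA3). Of 5 kidney-lineage genes, 4 were above 10 CPM, led by HOXA9 at 98.18 and HOXA10 at 85.05 CPM, while PAX8 was at 0.01 CPM. Of the neuroblastoma markers, TH, DBH and PHOX2A were thus at or near 0 in these libraries, while GATA2, TBX2, HAND1 and CHRNA3 were not. The part of cell identity in the results was not tested.

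In this network, ciRS-7 carries many binding sites for miR-7, a microRNA known for its role in neurons and neuroendocrine cells. Cyrano carries a site with extensive pairing to miR-7, which is known to trigger the destruction of the microRNA. ZSWIM8 is the substrate receptor of a cullin-RING ubiquitin ligase that degrades Argonaute in this target-directed decay. The microRNA miR-671 pairs with ciRS-7 almost perfectly and directs its cleavage by AGO2. The comparisons ask whether RNA of these partners differed after depletion of the circle. The circle itself was not measured, because poly(A) selection removes most circular RNA and no back-splice junctions were counted.

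The sequences that join the network are given first, since they define which member pairs with which microRNA. The mature microRNAs are those of RefSeq (GRCh38.p14), with the seed, bases 2 to 8, in capitals. The 2 seeds differ, so the microRNAs do not share seed matches.
hsa-miR-7-5p: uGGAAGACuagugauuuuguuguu
hsa-miR-671-5p: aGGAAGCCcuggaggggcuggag

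Matches to the 8 bases GTCTTCCA, which pair with the miR-7 seed and carry an A opposite its first base, were searched on the sense strand of the GENCODE 29 (GRCh38) transcripts of 7 members. CDR1-AS has no entry there under its identifier. In that annotation, LINC00632 transcripts run on through the exon that forms the circle, while the LINC00632 row of the count tables ends upstream of it. Of 25 LINC00632 transcripts, 5 held the 8 bases, each more than 40 times and at most 61 times. LINC00632-206, the shortest with at least 50 matches, has 1878 bases and held them 59 times, and among its 6-base seed matches the commonest spacing was 18 bases, in 52 of 75 intervals. Among 26180 transcripts within 0.8 to 1.25 times that length, 4.9% held the 8 bases at least once, and no transcript of another gene held them more than 2 times. The stretch below shows the repeat at positions 1262 to 1467 of LINC00632-206, counted from its 5′ end, with 11 matches of 7 or 8 bases to miR-7 in capitals.
LINC00632-206 miR-7 repeat: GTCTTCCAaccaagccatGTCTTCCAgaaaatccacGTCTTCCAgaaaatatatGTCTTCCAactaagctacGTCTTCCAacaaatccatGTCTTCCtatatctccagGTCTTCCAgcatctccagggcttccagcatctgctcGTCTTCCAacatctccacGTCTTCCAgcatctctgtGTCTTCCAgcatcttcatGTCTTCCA

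The site for miR-671-5p lay inside the same stretch, at positions 1373 to 1395, and 19 of its 23 bases, in capitals, were complementary to the microRNA.
LINC00632-206 miR-671-5p site: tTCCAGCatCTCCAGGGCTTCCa

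Cyrano held the 8 bases in 2 of 10 transcripts, at most 2 times. At positions 2869 to 2894 of OIP5-AS1-201, 14 further bases, also in capitals, were complementary to the 3′ part of miR-7 and were separated from the seed match by 4 unpaired bases. The other match of the same transcript, at 712 to 731, lacked this second block.
OIP5-AS1-201 miR-7 site: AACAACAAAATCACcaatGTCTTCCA
OIP5-AS1-201 seed match alone: tttaaaaaaaatGTCTTCCA

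Of 23 ZSWIM8 transcripts, 11 held the 8 bases, at most 2 times, and both matches of ZSWIM8-221 lay in its coding sequence, at positions 1248 to 1267 and 3587 to 3606.
ZSWIM8-221 first match: ctccatgtatctGTCTTCCA
ZSWIM8-221 second match: ccccctgtgaggGTCTTCCA

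Among 7407 transcripts of like length for ZSWIM8-221, 13.8% held at least 1 match and 1.3% at least 2. Among 2732 for OIP5-AS1-201 the shares were 18.0% and 2.9%. No transcript of HNRNPK, MIR7-3HG, CHPF2 or CDR1 held the 8 bases. The strand opposite CDR1-201, which is part of LINC00632-206, held them 32 times. A match is a description of these letters and not a measured binding site.

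Levels of the members were compared as mean CPM per kilobase of exon. HNRNPK, a ubiquitous RNA-binding protein, led with 133.365. OIP5-AS1 followed with 8.395, ZSWIM8 with 6.657 and CHPF2 with 5.499. LINC00632 stood at 1.638, and CDR1-AS, MIR7-3HG and CDR1 at 0.348, 0.314 and 0.29.

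No member was called in any KD comparison, that is, none had a Benjamini-Hochberg adjusted p-value under 0.05 in DESeq2 over all genes with at least 10 counts in 3 of the 6 libraries of a setup. Of the 8 members, 6 passed that filter in the agoshRNA, gRNA and syn-gRNA setups and 5 in the pre-gRNA setup. The background was the same, since 0.0% of the 17806 to 18717 genes tested were called in each setup. None of the tested members had an unadjusted p-value under 0.05, against 0 of all genes with agoshRNA, 17 with gRNA, 2 with pre-gRNA and 55 with syn-gRNA. Where values of all setups stand together below, they keep this order. The quasi-likelihood test of edgeR called no gene either, and in it 3, 34, 11 and 176 genes had an unadjusted p-value under 0.05. Without any effect, a share of about 0.05 of the genes would fall there. Both tests were thus conservative, and their lack of calls does not show that levels were unchanged. With the column letter as a term in DESeq2, no member was called, over a background of 0.0054% for syn-gRNA and 0.0% for each other setup. In that fit 105, 113, 1011 and 241 genes had an unadjusted p-value under 0.05. In edgeR with the letter, a fit added after seeing the data, 408, 730, 2460 and 1134 genes did. The genes tested were 17806, 18371, 18717 and 18513 in turn. With the letter, the share was above 0.05 for pre-gRNA in both tools and for syn-gRNA in edgeR. These fits were thus not conservative. All 32 exact permutation tests of a single member in a setup gave p-values between 0.3 and 1.0, where 3 against 3 libraries allow no value under 0.1, and in 0 of the 32 did the KD and NTC libraries not overlap. These tests ignored the column letter, and the share of all genes without overlap was not computed.

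**Figure D1:**
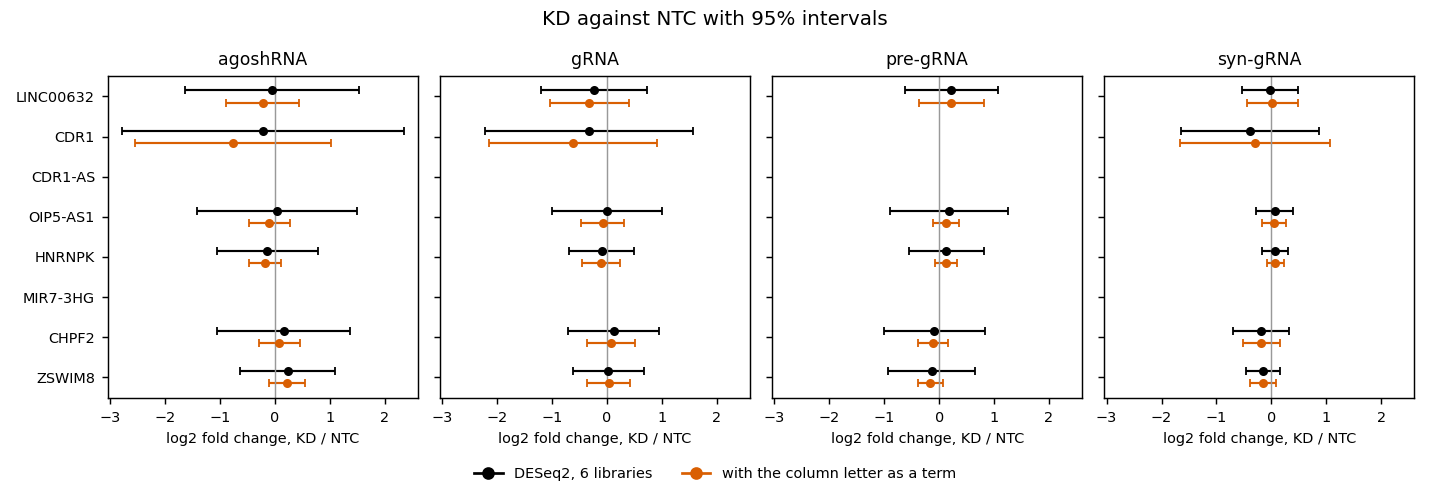
Log2 fold change of KD against NTC for each tested member (horizontal axis) in each of the 4 setups, with 95% intervals, from DESeq2 on 6 libraries (black) and with the column letter added as a term (orange). Every interval includes 0, and those of the syn-gRNA setup are the narrowest of the black intervals for each member; CDR1-AS and MIR7-3HG had too few counts to be tested.

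LINC00632 (ENSG00000203930.10_2, hg19 X:139791932-139854844, plus strand, 3008 exonic bases) is a long non-coding RNA gene whose promoter region is known to drive ciRS-7. Its levels were 1.17, 5.18 and 8.65 CPM in the agoshRNA KD libraries A, B and C, and 2.36, 5.13 and 8.68 CPM in the NTC libraries of the same letters. In the gRNA setup they were 1.34, 3.74 and 4.26 CPM in KD and 3.16, 4.39 and 3.99 CPM in NTC. In the agoshRNA setup the KD and NTC libraries of the same letter were closer to each other than the libraries of either group were among themselves, and in the gRNA setup A was the lowest library in both arms.

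The pre-gRNA libraries of LINC00632 had 3.28, 3.59 and 4.56 CPM in KD and 2.96, 2.38 and 4.43 CPM in NTC. The syn-gRNA libraries had 6.78, 7.02 and 8.73 CPM in KD and 5.23, 8.54 and 8.68 CPM in NTC. The groups overlapped in all 4 setups, and the 6 syn-gRNA libraries were all above the 12 libraries of the gRNA and pre-gRNA setups. The share of all genes with such a separation of setups was not computed. The DESeq2 log2 fold change of KD against NTC was 0.22 (SE 0.43) in the pre-gRNA setup, where KD was higher in 3 of 3 pairs of the same letter, by 0.04 to 0.51 on the log2(CPM + 0.5) scale. In the syn-gRNA setup it was -0.02 (95% interval -0.53 to 0.49). The adjusted p-value was 1.0 in each setup. Here and below, 3 of 3 pairs in the same direction arise often without any effect, and the share of all genes with such agreement was not computed. Over the 12 same-letter pairs of the 4 setups, KD was the higher library in 4 (CDR1-AS) to 9 (MIR7-3HG) for the members. In such bulk libraries, fewer cells with a transcript and less of it per cell cannot be told apart.

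CDR1 (ENSG00000184258.6_2, X:139864570-139867036, minus strand) is a gene annotated opposite the circle, and CDR1-AS (ENSG00000281508.1_1, X:139865341-139866825, plus strand) lies wholly inside it. The libraries carry no strand information, so reads of these rows cannot be told apart, and their levels moved together across the 24 libraries (Pearson r 0.97 of log2(CPM + 0.5), a description of rows that share reads). CDR1 had 0 to 26 counts and CDR1-AS 0 to 16 counts per library, with 3 counts or fewer in 6 and 7 libraries. CDR1 in the agoshRNA setup had 3, 26 and 0 counts in KD libraries A, B and C and 2, 22 and 11 counts in NTC. In the gRNA setup it had 0, 8 and 18 counts in KD and 3, 10 and 20 counts in NTC. The same letters were low or high in both arms, except for the 0 counts of agoshRNA KD C against 11 in NTC C. CDR1-AS, not tested in any KD comparison, was lower in KD in 8 of the 12 same-letter pairs. In the syn-gRNA setup it had 4 to 6 counts in KD and 5 to 16 counts in NTC. The authors' deposited table gives log2 fold changes of -0.54, -0.39, 0.17 and -0.89 for CDR1-AS in the 4 setups in turn, none of them called.

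CDR1 was lower in KD in 3 of 3 same-letter pairs of the gRNA setup, with differences of -0.5 to -0.13 on the log2(CPM + 0.5) scale and a DESeq2 log2 fold change of -0.33 (SE 0.97, adjusted p-value 1.0). The CDR1 counts of the syn-gRNA setup were 11, 7 and 6 in KD and 21, 10 and 6 in NTC, and the log2 fold change was -0.39 (95% interval -1.64 to 0.86). At this depth, changes of CDR1 inside such intervals were not detectable. LINC00632 and CDR1-AS, on the same strand and 10497 bases apart, were less alike across libraries (r 0.38) than CDR1 and OIP5-AS1 on different chromosomes (r 0.83).

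OIP5-AS1, Cyrano (ENSG00000247556.6_2, 15:41576188-41601935, plus strand, 12673 exonic bases), was measured with 450 to 2661 counts. In the agoshRNA setup it had 32.78, 170.28 and 90.51 CPM in KD libraries A, B and C and 43.31, 134.41 and 116.04 CPM in NTC. In the gRNA setup it had 44.57, 126.39 and 174.27 CPM in KD and 77.02, 109.55 and 170.97 CPM in NTC. In the pre-gRNA setup it had 107.52, 39.91 and 171.01 CPM in KD and 83.71, 43.84 and 146.63 CPM in NTC. Within a group, Cyrano thus differed up to 5.19-fold between libraries, and the same letters were high or low in both arms.

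The syn-gRNA libraries of Cyrano were closer together, with 139.11, 89.88 and 113.32 CPM in KD and 134.93, 100.59 and 92.87 CPM in NTC. The log2 fold change there was 0.06 (95% interval -0.27 to 0.39), the narrowest interval for Cyrano. It was 0.04 (SE 0.74) with agoshRNA, 0.0 (SE 0.51) with gRNA and 0.18 (SE 0.55) with pre-gRNA, and each adjusted p-value was 1.0. With offsets for GC content and the column letter in the model, the 4 estimates in turn came to 0.0 (SE 0.13), -0.02 (SE 0.16), 0.01 (SE 0.09) and 0.0 (SE 0.08). The authors' deposited table gives log2 fold changes of 0.03, -0.04, 0.19 and 0.06 for OIP5-AS1 in the same order.

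**Figure D2:**
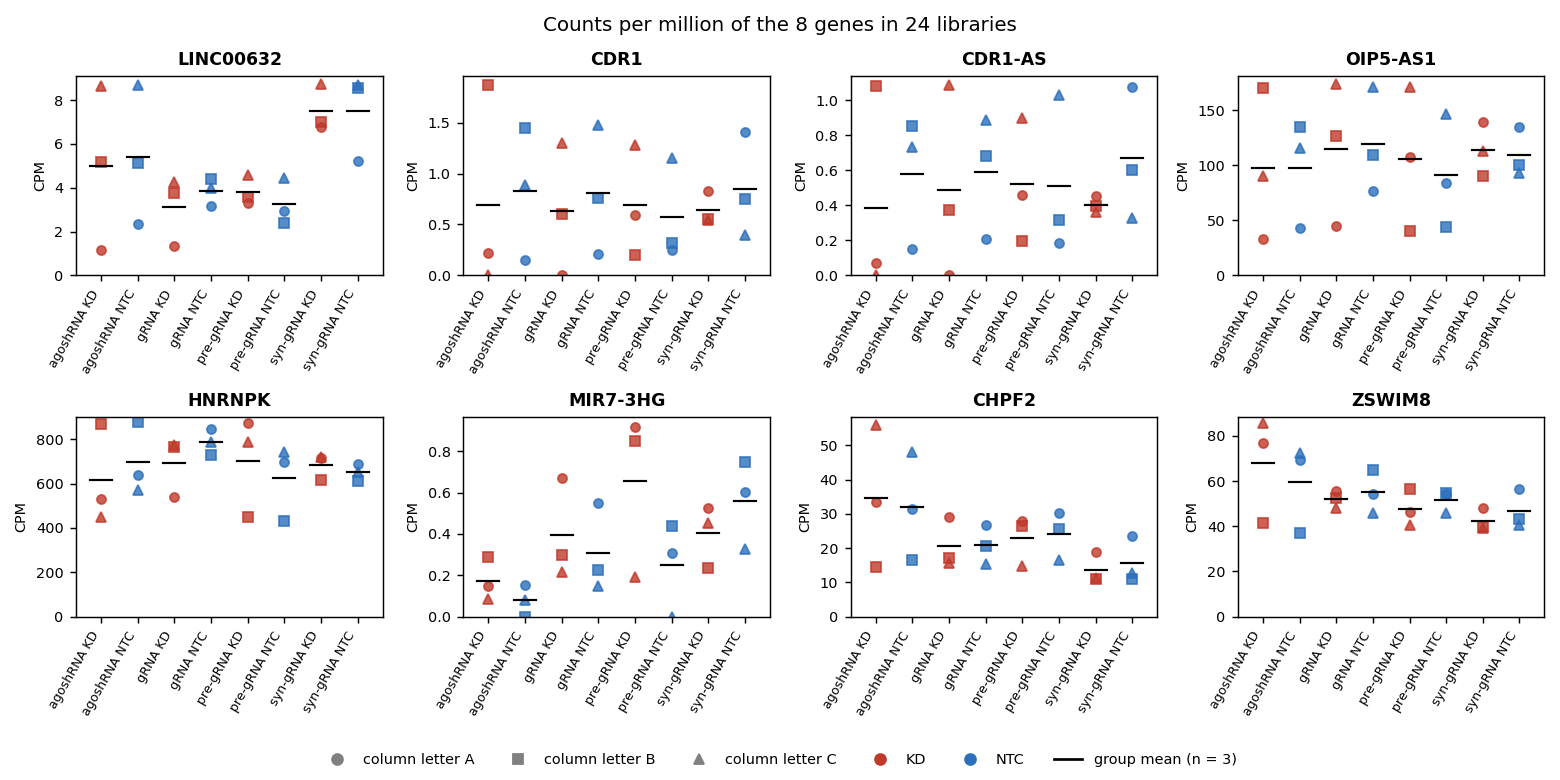
CPM (vertical axis, from 0) of each of the 8 genes in each library, by group (horizontal axis), with KD in red, NTC in blue, a marker shape for each column letter and a bar at the mean of 3 libraries. KD and NTC overlap for every gene in every setup; OIP5-AS1 ranges from 32.78 to 174.27 CPM, and CDR1, CDR1-AS and MIR7-3HG stay under 2 CPM.

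HNRNPK (ENSG00000165119.20_3, 9:86582998-86595531, minus strand) contains the MIR7-1 hairpin and was the most abundant member, with 5267 to 13352 counts. In the syn-gRNA setup it had 717.68, 616.61 and 721.33 CPM in KD libraries A, B and C and 686.59, 613.33 and 651.9 CPM in NTC, and the log2 fold change was 0.07 (95% interval -0.17 to 0.31). The pre-gRNA libraries had 874.46, 447.45 and 788.28 CPM in KD and 695.89, 429.58 and 744.64 CPM in NTC. KD was the higher library in 3 of 3 same-letter pairs in both setups, by 0.01 to 0.15 and by 0.06 to 0.33 on the log2(CPM + 0.5) scale.

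In the agoshRNA setup HNRNPK was instead lower in KD in 3 of 3 pairs, with 531.03, 867.14 and 450.99 CPM against 639.45, 878.03 and 570.69 CPM. None of these differences passed the test, with log2 fold changes of -0.14 (SE 0.47) for agoshRNA, -0.1 (SE 0.3) for gRNA and 0.13 (SE 0.35) for pre-gRNA, each at an adjusted p-value of 1.0. The difference of the KD effect between the agoshRNA and pre-gRNA setups was -0.28 (SE 0.37, adjusted p-value 1.0 in a DESeq2 model of all libraries).

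MIR7-3HG (ENSG00000176840.11_2, 19:4769152-4772545, plus strand) is the non-coding host of the MIR7-3 hairpin. It had 0 to 14 counts, with 3 counts or fewer in 11 libraries, and was not tested in any KD comparison. Its counts were 14, 13 and 3 in pre-gRNA KD libraries A, B and C and 5, 7 and 0 in NTC. They were 9, 4 and 3 in gRNA KD and 8, 3 and 2 in NTC. KD was thus the higher library in all 6 of these pairs, by 0.47 to 0.81 in the pre-gRNA setup and by 0.14 to 0.16 in the gRNA setup on the log2(CPM + 0.5) scale. The share of all genes with such agreement was not computed, and in the syn-gRNA setup KD was lower in 2 of 3 pairs.

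The pre-gRNA difference had the lowest of the 32 exact permutation p-values, 0.3, with an adjusted value of 0.93 or more. In the agoshRNA setup MIR7-3HG had 2, 4 and 1 counts in KD and 2, 0 and 1 counts in NTC, and in the syn-gRNA setup 7, 3 and 5 counts in KD and 9, 10 and 5 in NTC. The authors' deposited table gives log2 fold changes of 1.27, 0.5, 1.34 and -0.39 for MIR7-3HG in the 4 setups in turn, each with an adjusted p-value of 1.0. Most of these values rest on fewer than 10 counts per library.

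**Figure D3:**
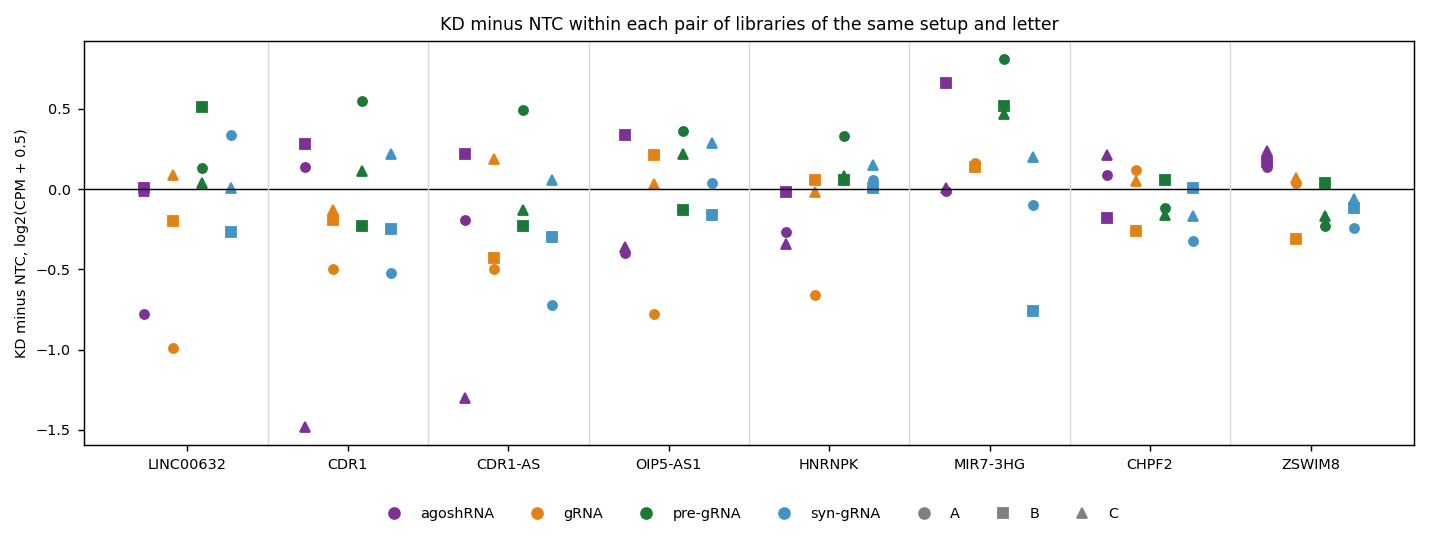
Difference of KD minus NTC (vertical axis, log2(CPM + 0.5)) within each of the 12 pairs of libraries that share a setup and a column letter, for the 8 genes (horizontal axis), coloured by setup and shaped by letter. MIR7-3HG is above 0 in all 3 pre-gRNA and all 3 gRNA pairs, ZSWIM8 is above 0 in the 3 agoshRNA pairs and below 0 in the 3 syn-gRNA pairs, and the lowest points, -1.48 and -1.3, are CDR1 and CDR1-AS in agoshRNA pair C.

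CHPF2 (ENSG00000033100.16_4, 7:150929575-150935913, plus strand) encodes an enzyme of chondroitin synthesis and contains the MIR671 hairpin. Its libraries had 33.51, 14.59 and 56.0 CPM in agoshRNA KD and 31.54, 16.64 and 48.2 CPM in NTC. In the syn-gRNA setup they had 18.76, 11.05 and 11.37 CPM in KD and 23.55, 10.94 and 12.82 CPM in NTC. The arms overlapped in both, as they did in the gRNA setup (15.21 to 29.17 CPM) and the pre-gRNA setup (14.65 to 30.25 CPM). Its log2 fold change was 0.16 (SE 0.62) with agoshRNA, 0.12 (SE 0.42) with gRNA, -0.09 (SE 0.47) with pre-gRNA and -0.19 (SE 0.26) with syn-gRNA, and all DESeq2 adjusted p-values were 1.0.

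The row of the MIR671 hairpin (7:150935507-150935624) overlaps CHPF2 and had 6 to 42 counts. In the syn-gRNA setup it had 23, 8 and 6 counts in KD and 35, 15 and 16 counts in NTC, lower in 3 of 3 same-letter pairs. Its log2 fold change was -0.62 (SE 0.55, adjusted p-value 1.0), so this difference did not pass the test. Such counts come from polyadenylated transcripts over the hairpin and not from mature miR-671.

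ZSWIM8 (ENSG00000214655.10_4, 10:75545340-75561555, plus strand) had 429 to 1054 counts. In the agoshRNA setup it had 76.79, 41.55 and 85.88 CPM in KD and 69.53, 36.96 and 72.46 CPM in NTC, higher in KD in 3 of 3 same-letter pairs by 0.14 to 0.24 on the log2(CPM + 0.5) scale. In the syn-gRNA setup it had 48.08, 39.85 and 39.02 CPM in KD and 56.7, 43.37 and 40.65 CPM in NTC, lower in 3 of 3 pairs. The log2 fold changes were 0.23 (SE 0.44) and -0.15 (95% interval -0.46 to 0.16), and the difference between these KD effects was 0.38 (SE 0.44, adjusted p-value 1.0). In the gRNA and pre-gRNA setups ZSWIM8 lay between 40.68 and 65.1 CPM, with log2 fold changes of 0.02 (SE 0.33) and -0.14 (SE 0.4).

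Between setups, the KD effect differed for 0 of the 8 members in all 6 pairs of setups, and for 0.0% of 20172 genes. The edgeR test called no gene in these comparisons either. Between 29 and 45 genes per pair had an unadjusted p-value under 0.05 in DESeq2 and 46 to 61 in edgeR, and no member was among those of DESeq2. These tests too were conservative. With the column letter within each setup as a term in DESeq2, 111 to 1840 of the 20172 genes per pair had such a p-value. The highest count, for gRNA against pre-gRNA, was above a share of 0.05, so that fit was not conservative.

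Of the other genes of the pathway, none passed the test in a KD comparison. Of 8 regulators of the processing of the miR-7 hairpin, the log2 fold changes lay between -0.2 (DROSHA, the nuclease of the first processing step, gRNA setup) and 0.21 (SRSF1, a splicing factor, pre-gRNA setup). Of 8 genes of the ZSWIM8 ligase and its neddylation, they lay between -0.25 (syn-gRNA) and 0.43 (gRNA), both for ELOB, the elongin B subunit. Among proteins that act on circular RNA, the highest was 0.22 (DHX9, a helicase, pre-gRNA). The median over the members was -0.01, -0.05, 0.13 and -0.08 in the 4 setups in turn, beside 0.06, 0.02, 0.01 and 0.0 over all genes tested.

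The NTC groups of the 4 setups were compared next, to see whether levels of the members depended on the setup apart from the knockdown. No member was called in any of the 6 pairs, over a background of 0.0496% of 20172 genes for agoshRNA against gRNA, 0.0347% for agoshRNA against pre-gRNA, 1.84% for agoshRNA against syn-gRNA, 0.0% for gRNA against pre-gRNA, 1.32% for gRNA against syn-gRNA and 3.25% for pre-gRNA against syn-gRNA. Setup, delivery and any batch cannot be told apart in these comparisons. When the 8 groups were ranked by mean CPM, no 2 neighbours in the order of any member differed by more than the larger of their SDs. Neighbours in a ranked order lie close by construction, so this does not show that levels were alike between setups.

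LINC00632 was the lowest in gRNA KD, at 3.11 ± 1.56 CPM (SD, n = 3), and the highest in syn-gRNA KD, at 7.51 ± 1.06 CPM. The NTC groups stood at 3.84 ± 0.62 (gRNA), 3.26 ± 1.06 (pre-gRNA), 5.39 ± 3.17 (agoshRNA) and 7.48 ± 1.95 CPM (syn-gRNA). The log2 difference in NTC was -1.11 (SE 0.55, DESeq2 adjusted p-value 0.404) for gRNA against syn-gRNA and -1.26 (SE 0.55, adjusted p-value 0.19) for pre-gRNA against syn-gRNA. When only the libraries of the pair of setups entered the model, both passed the threshold, with adjusted p-values of 0.049 and 0.00369.

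MIR7-3HG stood at 0.08 ± 0.08 CPM in agoshRNA NTC and 0.56 ± 0.21 CPM in syn-gRNA NTC, that is, at 0 to 2 counts against 5 to 10 counts per library. The agoshRNA NTC libraries were thus at or under the level of 3 counts. The test of this difference gave 0.00762 as unadjusted and 0.16 as adjusted p-value in DESeq2, and an adjusted value of 0.0383 with offsets for GC content. MIR7-3HG reached 10 counts only in pre-gRNA KD A and B and syn-gRNA NTC B. It thus passed the count filter of this model through libraries where it was high, 1 of them in the higher group compared, and the p-values are no support for a difference. CHPF2 was higher in agoshRNA NTC, at 32.12 ± 15.79 CPM, than in syn-gRNA NTC, at 15.77 ± 6.8 CPM, by 1.02 on the log2 scale (SE 0.49, adjusted p-value 0.346). HNRNPK, OIP5-AS1, ZSWIM8, CDR1 and CDR1-AS had unadjusted p-values above 0.05 in all 6 pairs.

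The MIR7-1 hairpin row (9:86584663-86584772, minus strand, inside HNRNPK) did not follow its host gene (r 0.31 over the 24 libraries). It had 110 to 154 counts in the 6 syn-gRNA libraries and 7 to 59 counts in the other 18. The values were 8.36, 8.68 and 13.37 CPM in syn-gRNA KD and 7.45, 10.41 and 10.13 CPM in NTC, while the other 18 libraries had a median of 1.73 and a maximum of 4.34 CPM. All syn-gRNA libraries, KD and NTC alike, were thus above all others, and the KD and NTC libraries of that setup overlapped (log2 fold change 0.1, SE 0.25, adjusted p-value 1.0 in DESeq2). The share of all genes with such a separation was not computed. SRSF1 was separated in the same way, at 724.7 CPM or more in the syn-gRNA libraries and at most 640.07 CPM in the others.

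Relative to its host, the MIR7-1 row had 10.85 to 18.53 counts per 1000 HNRNPK counts in the syn-gRNA setup, with a median of 14.81. The ratio was 0.83 to 4.89 in the agoshRNA setup, 0.89 to 5.68 in the gRNA setup and 1.65 to 3.99 in the pre-gRNA setup. HNRNPK itself lay between 613.33 and 721.33 CPM in the syn-gRNA libraries and between 429.58 and 878.03 CPM in the others. In the NTC groups, the log2 difference of MIR7-1 was -2.33 (SE 0.68, adjusted p-value 0.0481 in DESeq2) for gRNA against syn-gRNA and -2.74 (SE 0.68, adjusted p-value 0.0067) for pre-gRNA against syn-gRNA, and both passed the threshold. The agoshRNA difference of -2.03 (SE 0.68, adjusted p-value 0.0909) did not.

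In the KD groups the MIR7-1 differences were -2.19, -2.19 and -2.55 for agoshRNA, gRNA and pre-gRNA against syn-gRNA, with adjusted p-values of 0.0438, 0.0627 and 0.0141 in DESeq2. With edgeR none of the NTC differences passed, at adjusted p-values of 0.213, 0.186 and 0.0716. The gRNA difference lost its call when any 1 of 10 of the 12 libraries of the pair was left out, all but gRNA KD A and gRNA KD B, with values of -2.67 to -1.92 (adjusted p-values 0.057 to 0.452). The pre-gRNA difference lost it without pre-gRNA NTC A or B or syn-gRNA NTC B or C (adjusted p-values 0.0521 to 0.088). The row counts polyadenylated fragments over the hairpin, so that it gives no level of mature miR-7. The MIR7-2 row was at 0 counts in all 24 libraries, and MIR7-3 had 0 to 2 counts.

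**Figure D4:**
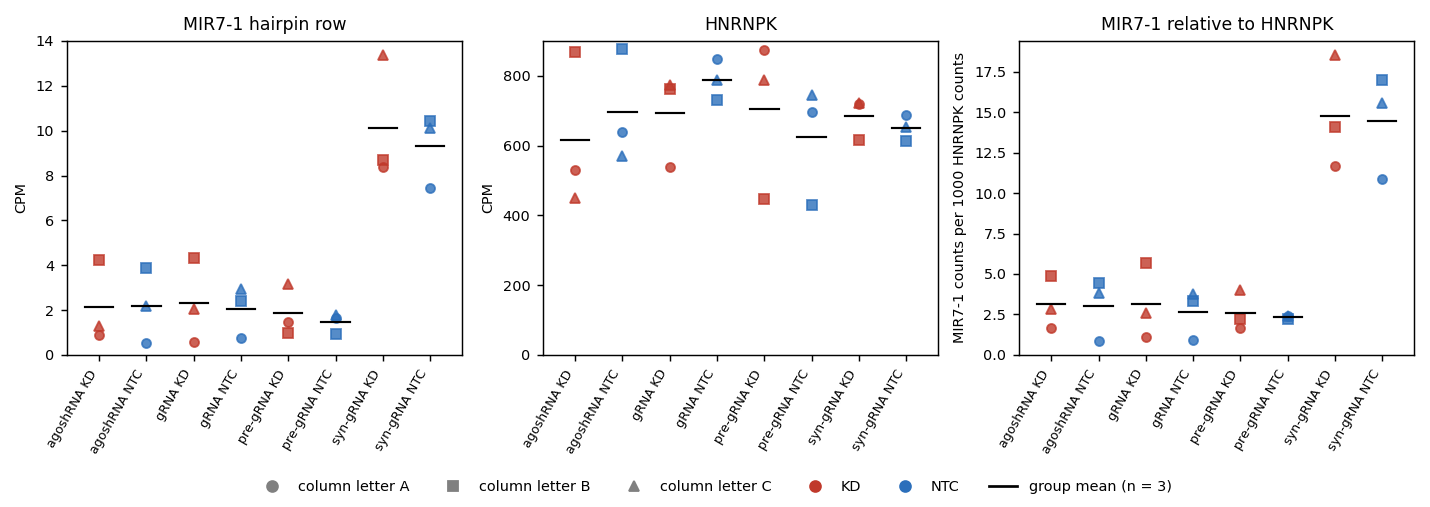
CPM of the MIR7-1 hairpin row (left), CPM of its host gene HNRNPK (middle) and MIR7-1 counts per 1000 HNRNPK counts (right), all on axes from 0, by group, with KD in red, NTC in blue, a marker shape per column letter and a bar at the mean of 3 libraries. In the right panel the 6 syn-gRNA libraries sit between 10.85 and 18.53 and the other 18 libraries at or below 5.68, while HNRNPK shows no such step.

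Some genes that act on the miR-7 hairpin or on circular RNA also differed between NTC groups. SRSF1, a splicing factor known to promote processing of the miR-7 hairpin, had 282.31, 133.01 and 370.07 CPM in pre-gRNA NTC and 724.7, 848.74 and 856.91 CPM in syn-gRNA NTC, a difference of -1.72 on the log2 scale (SE 0.45, adjusted p-value 0.0116 in DESeq2). It lost its call without pre-gRNA NTC A or B or syn-gRNA NTC B or C (adjusted p-values 0.0815 to 0.113). DGCR8, the RNA-binding partner of DROSHA, was higher in agoshRNA NTC and gRNA NTC than in syn-gRNA NTC, by 1.15 (SE 0.31, adjusted p-value 0.0206) and 1.14 (SE 0.31, adjusted p-value 0.029). The first call was lost without agoshRNA NTC A or C or syn-gRNA NTC B or C (adjusted p-values 0.115 to 0.265), and the second without any of the 3 gRNA NTC libraries or syn-gRNA NTC B or C (0.0954 to 0.371).

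YTHDF2, a reader of methylated RNA that can recruit nucleases to circular RNA, was lower in pre-gRNA NTC than in syn-gRNA NTC, at -0.73 on the log2 scale (SE 0.22, adjusted p-value 0.0415). The call was lost when any 1 of 8 libraries was left out, pre-gRNA KD C, pre-gRNA NTC A or B, a syn-gRNA KD library or syn-gRNA NTC B or C (adjusted p-values 0.0534 to 0.256). The other 6 of 8 hairpin regulators, the other 5 of 6 circular RNA proteins and all 8 genes of the ZSWIM8 ligase were not called in any of the 6 pairs.

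C9orf64, the gene downstream of HNRNPK, was higher than in syn-gRNA NTC in agoshRNA, gRNA and pre-gRNA NTC, by 1.46, 1.42 and 1.32 (adjusted p-values 0.0311, 0.0482 and 0.0469 in DESeq2). The agoshRNA call was lost without agoshRNA NTC A or any 1 of the syn-gRNA NTC libraries (adjusted p-values 0.0644 to 0.349). The gRNA call was lost when any 1 of the 12 libraries except gRNA KD A and gRNA NTC B was left out (0.0506 to 0.659), and the pre-gRNA call without pre-gRNA KD C, pre-gRNA NTC A or C or any of the 6 syn-gRNA libraries (0.0568 to 0.383). In edgeR none of the calls of SRSF1, DGCR8, YTHDF2 and C9orf64 passed, at adjusted p-values of 0.0704 to 0.165.

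The spread between libraries of a group was related to base composition for several members. In each library, log2 CPM relative to the mean of all libraries was correlated with GC content across 13676 genes, which are not independent replicates, and Spearman's rho ranged from -0.83 in agoshRNA KD B to 0.79 in gRNA KD A. The 6 syn-gRNA libraries all had negative values, from -0.66 to -0.25. The longest transcripts of LINC00632, OIP5-AS1, HNRNPK and CDR1 are poor in G and C, at 36.0, 38.4, 42.3 and 44.1%, against a median of 48.8% over all genes whose mean reached 50 counts. Those of CHPF2 and ZSWIM8 are rich in them, at 61.4 and 60.7%. For LINC00632 the longest transcript has 21221 bases and runs through the exon of the circle. Its GC content and GC offset therefore may not describe the 3008 exonic bases that were counted.

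Cyrano was at 32.78 to 44.57 CPM in the 5 libraries with rho of 0.71 or more and at 134.41 to 174.27 CPM in the 6 libraries with rho of -0.67 or less. CHPF2 and ZSWIM8 moved the other way across the 24 libraries (r -0.48 and -0.51 with OIP5-AS1), and they were like each other (r 0.87), although they lie on different chromosomes. Offsets that remove the trend with GC content lowered the SD within groups of log2 OIP5-AS1 from 0.82 to 0.14. The SD fell from 0.62 to 0.44 for CHPF2 and from 0.36 to 0.26 for ZSWIM8, while the median over 13835 genes fell from 0.47 to 0.3. It was 0.79 before and 0.65 after for LINC00632, and for HNRNPK it was larger after, 0.35 against 0.28.

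The genes most like each member across the 24 libraries were sought among the 13835 genes whose mean reached 50 counts, by Pearson's r of log2(CPM + 0.5). For OIP5-AS1 they were KPNA4 (r 0.992), HACD2 (0.991) and SPAG9 (0.991), and 2621 genes had r above 0.9. For LINC00632 they were TMSB4X (0.945), TMSB15A (0.933) and MIR1539 (0.93), and only 16 genes had r above 0.9. For CHPF2 they included MAFG (0.942) and RNF121 (0.941), and for CDR1 they were HDHD2 (0.89), ITGA1 (0.889) and DMD (0.889). Cyrano thus shared its profile with many genes, and LINC00632 with few.

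Some of the nearest profiles belonged to overlapping rows. HNRNPK was most like RP11-575L7.8 (r 0.97), which lies inside it on the opposite strand, ahead of KIAA0391 (0.965) and GRSF1 (0.96). ZSWIM8 was most like ZSWIM8-AS1 (r 0.947), also inside it on the opposite strand, ahead of ULK1 (0.947) and ENGASE (0.938). Without strand information, reads of such pairs cannot be told apart. OIP5, which overlaps the end of OIP5-AS1 on the opposite strand, was not like it (r 0.12), whereas NUSAP1, 22957 bases downstream, was (r 0.97).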

How the data were processed

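Per the labels' protocols, polyadenylated RNA was made into non-stranded paired-end libraries. Per the submitters' processing notes, reads were trimmed with Trim Galore, aligned to hg19 with STAR 2.7.3a and counted with featureCounts. The annotation release is not given in the sources used here. Each of the 4 deposited tables held raw counts per gene, identical in the 4 tables, and the exon length in bases, per the file headers. The log2 fold changes and p-values of the authors came from DESeq2, per the file headers, with a model that is not given in the sources used here. Every table also held 24 columns of normalized counts, which were left aside.

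From the counts, DESeq2 1.42.0 (Wald test, R 4.3.3) compared KD with NTC in the 6 libraries of each setup, for genes with at least 10 counts in 3 libraries. One model of all 24 libraries gave the differences between NTC groups and between KD effects. Genes were called at a Benjamini-Hochberg adjusted p-value under 0.05 over all genes tested. The quasi-likelihood test of edgeR 4.0.16, other filters and scalings, offsets for GC content and leaving out each library were the alternatives. The tests were also run on simulated data. No result of that run is given here, so it is no evidence of their power in these libraries. Single members were compared by exact two-sided permutation tests of log2(CPM + 0.5). No 2 libraries of a group agreed within sampling noise.

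Libraries of the KD and NTC arms that share a column letter deviated together from their group means (r 0.36 to 0.97 across genes). The letter was therefore also fitted as a paired term (replicate block), as an alternative. Pairs of different letters had r of -0.95 to 0.49, the highest for pre-gRNA KD A with NTC C. In the syn-gRNA setup, KD B with NTC C had r 0.43, above the 0.36 of the same-letter pair C. GC content was that of the longest GENCODE 29 transcript of each gene, and 93.2% of the genes were matched.

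Named are the 8 members, overlapping and nearest neighbouring rows with a mean of at least 10 counts, the 3 genes most alike among those with a mean of at least 50 counts, and 4 lists: regulators of miR-7 hairpin processing, the ZSWIM8 ligase with its neddylation, proteins acting on circular RNA, and microRNA hairpin rows. Called list genes and the extremes of a list are given with values. Some genes that this rule names are not reported here. Members and lists were chosen with earlier results of these data known.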

Additional observations from a re-analysis of the deposited data

How the results depend on the processing

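The count of members called, 0 in each comparison, was unchanged under 109 of 112 alternatives and in all 168 fits that left out 1 library. The exceptions were NTC comparisons with syn-gRNA, each with 1 member called: MIR7-3HG against agoshRNA with GC offsets (-3.2, adjusted p-value 0.0383), and LINC00632 against gRNA (-1.13) and against pre-gRNA (-1.26) when only the 2 setups entered the model. MIR7-3HG passed the count filter only through libraries where it was high, among them syn-gRNA NTC B. The cause was not tested. Over all genes, the alternatives called 0.0% in every difference of the KD effect. They called at most 0.0486% in the KD comparisons (syn-gRNA, edgeR with the letter) and up to 10.6% between NTC groups. In the first 2 kinds of comparison a count of 0 members was thus nearly fixed in advance. Its stability there is no support for unchanged levels.

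Pairs of libraries were taken from the column letters, since nothing links these to the replicate numbers of the labels. With the letter as a replicate block, 0 members were called in any KD comparison, in DESeq2 and in edgeR, and in the differences of the KD effect, in DESeq2. Over all genes, the block called 0, 0, 0 and 1 genes in DESeq2 and 0, 3, 0 and 9 in edgeR for agoshRNA, gRNA, pre-gRNA, syn-gRNA, against 0 in each without it.

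Some KD estimates changed sign, none of them called. With the letter as a term, the agoshRNA value of OIP5-AS1 was -0.1 in both DESeq2 and edgeR, and the syn-gRNA value of LINC00632 was 0.02 and 0.01. The edgeR fit with the letter was added after seeing the data. With GC offsets, alone and together with the letter, CHPF2 was at -0.08 and -0.09 (agoshRNA), -0.13 and -0.12 (gRNA) and 0.07 and 0.06 (pre-gRNA), HNRNPK at 0.05 and 0.04 (gRNA) and ZSWIM8 at -0.14 and -0.15 (gRNA). ZSWIM8 was at 0.01 in the pre-gRNA setup with both, and at -0.01 in the gRNA setup with the TMM scaling of edgeR in either tool. The cause was not tested.

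Leaving out 1 library changed the sign of LINC00632 (-0.68 to 0.45 in agoshRNA, -0.49 to 0.11 in gRNA, -0.25 to 0.12 in syn-gRNA), CDR1 (-0.74 to 0.38 in agoshRNA, -0.8 to 0.25 in gRNA), OIP5-AS1 (-0.72 to 0.48 in agoshRNA, -0.35 to 0.66 in pre-gRNA, -0.08 to 0.18 in syn-gRNA) and HNRNPK (-0.57 to 0.15 in agoshRNA, -0.18 to 0.02 in gRNA). It did so for CHPF2 (-0.42 to 0.58, -0.27 to 0.3, -0.35 to 0.17 and -0.46 to 0.15 in agoshRNA, gRNA, pre-gRNA and syn-gRNA) and ZSWIM8 (-0.09 to 0.2 in gRNA, -0.42 to 0.08 in pre-gRNA).

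Between NTC groups, counts over all genes depended on the test. For agoshRNA, gRNA and pre-gRNA against syn-gRNA, 371, 266 and 656 genes were called, against 16, 0 and 149 in edgeR, 1484, 1236 and 1774 with GC offsets, and 422, 884 and 2084 with only the 2 setups. With the KD groups they were 634, 318 and 508. For agoshRNA against gRNA, 10 genes were called, against 3 in edgeR, 19 with GC offsets and 6 with only the 2 setups. For agoshRNA against pre-gRNA, 7 were called, against 2, 28 and 4. In DESeq2 with GC offsets the DGCR8 difference of agoshRNA and syn-gRNA was 0.89 (adjusted p-value 0.0688), and the MIR7-1 call against gRNA was lost without a filter on low counts (0.0588). Depth limits CDR1, CDR1-AS and MIR7-3HG, with at most 26 counts per library.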
